A study of Mus musculus with 9 samples.

Results

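The 36 genes described here encode aminoacyl-tRNA synthetases, the enzymes that join each amino acid to its transfer RNA. They were chosen by name from a deposited table of 20717 genes, of which 17559 had values. Of the 36 genes, 20 encode cytosolic enzymes and 16, whose names end in 2, encode mitochondrial enzymes. All 36 were found, and all 36 passed the filter on low values, at least 1 FPKM (fragments scaled to transcript length and library size) in at least 3 libraries, which 11460 genes passed.

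The cells were primary peritubular myoid cells, which are contractile and ring the seminiferous tubules of the testis, taken from C57BL/6J mice and grown with 10% serum at 37 °C. The groups are cells kept without heat (control), cells collected 1 h after 30 min in a 42 °C water bath, and cells collected 6 h after the same heating. Each group has 3 RNA-seq libraries, and the labels do not say whether these came from separate animals or cultures, so p-values reflect how far these libraries vary among themselves, which can be technical variation. The series asks what heat does to these cells, whose organ in the mouse is kept cooler than the body.

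Each synthetase recognises 1 amino acid and the matching transfer RNAs, except the joint enzyme encoded by Eprs, which serves glutamate and proline. The charged transfer RNAs feed the ribosome. Cytosolic enzymes serve the proteins made from nuclear genes, and a separate nuclear-encoded set is imported into mitochondria to serve the few proteins encoded by mitochondrial DNA. Several cytosolic synthetases sit together in a multi-synthetase complex held by the scaffold proteins AIMP1, AIMP2 and EEF1E1. Many cytosolic synthetase genes are targets of ATF4, the transcription factor of the integrated stress response, which binds a C/EBP-ATF response element in promoters. Gars and Kars each encode both the cytosolic and the mitochondrial enzyme for their amino acid, glycine and lysine.

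Promoters were available for 27 of the 36 genes, 13 cytosolic and 14 mitochondrial, from RefSeq on GRCm38.p6, covering 250 bases before to 50 bases after each start. The C/EBP-ATF response element, searched as TGATGNAA on both strands, was in 5 of the 13 cytosolic promoters (Aars, Gars, Iars, Tars and Yars) and in 0 of the 14 mitochondrial promoters. It was in 3.97% of all 32851 promoters of the same length. The difference between the classes was not tested. The windows are shown because the members that hold this element are all in the cytosolic class, though Gars encodes the mitochondrial enzyme as well. The element is in capitals, read 5′ to 3′ on the strand of the gene.
Aars, chr8:111033704-111033763, plus strand, first element, starting 112 bases before the start: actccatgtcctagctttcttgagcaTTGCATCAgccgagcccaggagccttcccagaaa
Aars, chr8:111033825-111033871, plus strand, second element, starting at base 10 of the transcript: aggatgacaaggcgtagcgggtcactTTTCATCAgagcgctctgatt
Gars, chr6:55037945-55038004, plus strand, element starting 30 bases before the start: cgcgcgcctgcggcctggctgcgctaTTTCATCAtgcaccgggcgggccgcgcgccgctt
Iars, chr13:49682111-49682159, plus strand, element starting at base 8 of the transcript: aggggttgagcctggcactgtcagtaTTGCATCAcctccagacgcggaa
Tars, chr15:11399640-11399699, minus strand, element starting 15 bases before the start: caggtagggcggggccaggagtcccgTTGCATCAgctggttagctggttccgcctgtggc
Yars, chr4:129189880-129189932, plus strand, element starting at base 4 of the transcript: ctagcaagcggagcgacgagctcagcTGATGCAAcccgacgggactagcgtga

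The NRF1 motif, bound by a factor known for nuclear genes of mitochondrial function, was searched as GCGCANGCG on both strands. It was in 4 of the 14 mitochondrial promoters (Iars2, Mars2, Vars2 and Wars2) and in 3 of the 13 cytosolic promoters (Farsb, Kars and Tars), against 6.25% of all promoters. The windows of Wars2 and Iars2 are shown as examples from the mitochondrial class, with the motif in capitals.
Wars2, chr3:99141000-99141060, plus strand, motif starting 64 bases before the start: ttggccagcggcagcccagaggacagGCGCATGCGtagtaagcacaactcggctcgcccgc
Iars2, chr1:185329372-185329418, minus strand, motif starting at base 10 of the transcript: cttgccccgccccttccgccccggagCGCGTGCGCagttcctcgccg

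Heat shock element pairs were searched as GAANNTTC and TTCNNGAA. The first was in the Dars promoter and in 7.86% of all promoters, the second in the Tars promoter and in 8.52%. The ETS motif CCGGAAGT was in the promoters of Farsa, Mars and Rars2 and in 3.89% of all, and the cyclic AMP response element TGACGTCA, in 1.79% of all, was in 0 of the 27. No matches of different motifs overlapped in the members' promoters. A match describes letters in the window and was not tested as a binding site.

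The heat labels were checked with Hspa1a, the inducible HSP70 chaperone, which stood at 1228, 1794 and 1513 FPKM in the 1 h libraries, against 10.2, 12.3 and 6.92 FPKM in control. Depth, estimated from the steps of low FPKM values, was 19060000 to 19980000 reads per library. The median SD between replicates on the log2 scale was 0.237 in control, 0.147 at 1 h and 0.282 at 6 h. Summed markers of peritubular myoid cells (8 of 8 past the filter) stood at 3142 to 4632 FPKM, with Acta2 at 992 to 1627 FPKM in every library. Sertoli cell markers (8 of 12 past the filter) summed to 343 to 3220 FPKM in control, 304 to 590.1 FPKM at 1 h and 447 to 590.1 FPKM at 6 h, highest in control replicate 3. In that library Clu stood at 2700.0 FPKM, Cldn11 at 237 FPKM and Wt1 at 53.8 FPKM, against 175 to 437, 0.73 to 8.23 and 2.21 to 15.4 FPKM in the other 8 libraries, and the Sertoli genes Amh and Fshr were at most 0.26 and 0.09 FPKM in all 9. Leydig cell markers (4 of 8) summed to 910.3 to 2139 FPKM in control, 872 to 2029.8 FPKM at 1 h and 1400.2 to 2032 FPKM at 6 h, with Insl3 at 181 to 1607 FPKM and Cyp11a1 at 288 to 819.8 FPKM, while the 4 untested Leydig markers Cyp17a1, Hsd17b3, Lhcgr and Hsd3b6 were at most 0.11, 0.12, 0.27 and 0.94 FPKM. Macrophage markers (5 of 7) summed to 54.2 to 84.7 FPKM in control, 56.2 to 228 FPKM at 1 h and 43.6 to 234 FPKM at 6 h. Germ cell markers summed to at most 8.3 FPKM, endothelial markers to at most 85.2 FPKM and red blood cell markers to at most 7.08 FPKM, and mitotic genes to 51.0 to 214 FPKM. The part of these markers in the results on synthetases was not tested.

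Cytosolic synthetase transcripts were more abundant than mitochondrial ones, and the means of the classes in control did not overlap. Control means ran between 24.6 FPKM (Vars) and 258 FPKM (Nars) for cytosolic genes, with a median of 44.3 FPKM. For mitochondrial genes they ran between 1.25 FPKM (Ears2) and 22.3 FPKM (Iars2), with a median of 4.07 FPKM. Among all genes tested, cytosolic members lay between the percentiles 71.8 and 97.4 of control level, and mitochondrial members between 4.38 and 69.5. Because FPKM is scaled by transcript length, these levels can be set side by side between genes.

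Nars, which charges asparagine, was the most abundant synthetase in every library. It stood at 246, 286 and 242 FPKM in control, 299, 283 and 219 FPKM at 1 h, and 269, 206 and 275 FPKM at 6 h, and made up 18.2% to 23.8% of the summed cytosolic level. The lowest 6 h library lay below all control libraries, and the groups overlapped. Gars stood at 110.5, 106 and 84.5 FPKM in control, 114, 107 and 92.3 FPKM at 1 h, and 92.2, 95.4 and 115 FPKM at 6 h. Aars, the alanine enzyme, stood at 82.2, 77.9 and 93.7 FPKM in control, 96.4, 86.0 and 78.1 FPKM at 1 h, and 85.2, 76.4 and 84.4 FPKM at 6 h. Neither Gars nor Aars separated the groups, and the ranges of Aars and Rars, next to each other in the order of control means, overlapped.

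The lowest cytosolic members were Vars, Farsb and Mars, the enzymes or subunits for valine, phenylalanine and methionine. Vars stood at 24.8, 30.4 and 18.7 FPKM in control, 24.7, 23.7 and 18.9 FPKM at 1 h, and 17.9, 26.9 and 21.7 FPKM at 6 h. Its lowest values in control and at 1 h came from replicate 3 of each group. Kars stood at 66.0, 86.3 and 50.9 FPKM in control, 62.9, 67.2 and 52.5 FPKM at 1 h, and 65.2, 71.7 and 73.5 FPKM at 6 h. Hars, Sars, Dars and Lars, for histidine, serine, aspartate and leucine, had control means between 29.7 and 60.6 FPKM.

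Cytosolic phenylalanyl-tRNA synthetase is built of an alpha subunit, encoded by Farsa, and a beta subunit, encoded by Farsb, in equal number. The ratio of Farsa to Farsb FPKM was 1.07, 1.08 and 1.08 in control, 0.982, 0.960 and 1.09 at 1 h, and 0.958, 1.06 and 1.04 at 6 h. The ratio stayed between 0.958 and 1.09 over the 9 libraries. The Farsb locus shares 2329 bases with Sgpp2 on the opposite strand, which was at 0.11 FPKM in control.

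Among mitochondrial synthetases, Iars2, for isoleucine, made up 20.5% to 27.6% of the summed level. Iars2 stood at 19.1, 23.5 and 24.4 FPKM in control, 18.8, 19.7 and 18.9 FPKM at 1 h, and 18.3, 18.1 and 19.9 FPKM at 6 h. Control replicates 2 and 3 lay above every heated library, and control replicate 1 lay among them. Yars2, for tyrosine, stood at 11.1, 16.5 and 9.47 FPKM in control, 9.61, 11.5 and 9.82 FPKM at 1 h, and 12.8, 10.9 and 15.2 FPKM at 6 h. Its groups overlapped in each comparison.

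At the low end, Wars2, for tryptophan, stood at 1.17, 1.23 and 1.56 FPKM in control, 1.01, 1.23 and 0.91 FPKM at 1 h, and 1.13, 1.86 and 2.10 FPKM at 6 h. Ears2 and Pars2, for glutamate and proline, were at most 2.16 and 2.36 FPKM in any library. Hars2, Fars2, Sars2 and Vars2, for histidine, phenylalanine, serine and valine, had control means between 2.87 and 5.94 FPKM. The least sampled value was Pars2 in 1 h replicate 3, an estimated 29 reads, for which counting alone gives a coefficient of variation of 18.6%. Cytosolic members had an estimated 874 to 15273 reads in a library.

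The highest library stood at a median of 1.43 times the lowest for cytosolic members (1.26 to 1.76) and at a median of 1.79 times for mitochondrial members (1.35 to 4.72). Members of both classes varied with the library: 31 of 36 had their lowest 1 h value in 1 h replicate 3, 25 had their highest control value in control replicate 2 and 23 had their lowest control value in control replicate 3.

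**Figure D1:**
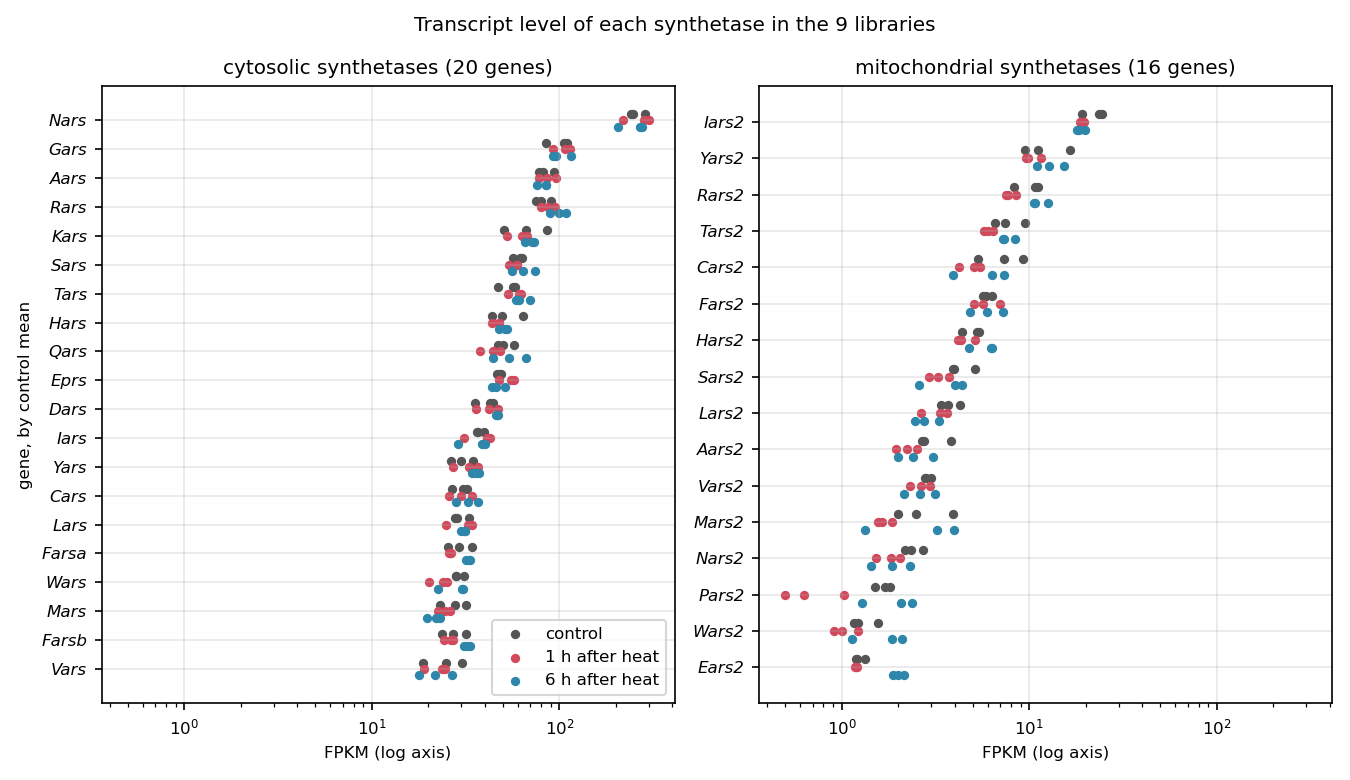
FPKM of each synthetase in the 9 libraries on a log axis, cytosolic genes on the left and mitochondrial genes on the right, ordered by control mean. Each point is 1 library, coloured by control, 1 h or 6 h; cytosolic control means lie between 24.6 and 258 FPKM and mitochondrial ones between 1.25 and 22.3 FPKM.

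For 15 amino acid pairings, a cytosolic gene could be set beside its mitochondrial counterpart in the same library, with Eprs, which encodes the joint glutamate and proline enzyme of the cytosol, set beside both Ears2 and Pars2. The ratio of control means was lowest for Iars to Iars2 at 1.69, Yars to Yars2 at 2.45, Cars to Cars2 at 4.07 and Tars to Tars2 at 6.84. It was highest for Nars to Nars2 at 107, Eprs to Ears2 at 38.3, Eprs to Pars2 at 28.6 and Aars to Aars2 at 27.5. The asparagine pair joined the most abundant cytosolic member to one of the least abundant mitochondrial ones: Nars2 stood at 2.33, 2.70 and 2.18 FPKM in control, 2.06, 1.83 and 1.53 FPKM at 1 h, and 2.31, 1.43 and 1.85 FPKM at 6 h. In the isoleucine pair, Iars stood at 36.4, 39.6 and 36.9 FPKM in control, 42.5, 40.9 and 30.9 FPKM at 1 h, and 40.2, 28.9 and 38.6 FPKM at 6 h.

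The mean ratio of cytosolic to mitochondrial level was higher at 1 h than in control in 12 of the 15 pairs, and higher at 6 h than in control in 9. It was higher at 6 h than at 1 h in 3 of 15. The Nars to Nars2 ratio was 145, 155 and 143 at 1 h, against 105, 106 and 111 in control, and the libraries did not overlap. The Eprs to Pars2 ratio was 55.7, 87.2 and 95.5 at 1 h, against 30.8, 26.8 and 28.6 in control, again without overlap. The Aars to Aars2 ratio was 38.4, 38.4 and 40.1 at 1 h, against 30.0, 20.4 and 35 in control, and the Cars to Cars2 ratio was 6.25, 5.87 and 6.13 at 1 h, against 4.36, 3.32 and 4.98 in control. At 6 h the Eprs to Ears2 ratio was 27.3, 21.9 and 21.2, against 34.7, 40.4 and 40.1 in control. Pairs that share Eprs are not independent of each other. Neither the count of pairs nor the lack of overlap was set beside ratios of other genes. At 1 h against control, all genes tested in the control range of the cytosolic members had a median log2 difference of -0.16. Those in the control range of the mitochondrial members had -0.19.

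The first comparison asks what differed 1 h after heat. Over the mitochondrial class every fitted difference was below 0 at 1 h (16 of 16), with a median of -0.25 on the log2(FPKM + 1) scale, while the cytosolic class divided evenly, 10 above and 10 below, with a median of 0.0005. The median over all 11460 genes was -0.17, and 8729 of them were below 0. Below that median lay 12 of 16 mitochondrial and 2 of 20 cytosolic members. Genes with control levels in the range of the cytosolic members (2932 genes) had a median of -0.16. Those in the range of the mitochondrial members (7464 genes) had a median of -0.19, and 5901 of them were below 0. Neither class had a member called by limma at an adjusted p below 0.05, against 0.157% of all genes (18 genes, all higher at 1 h).

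At an unadjusted limma p below 0.05, 0 members were higher at 1 h, against 2.76% of all genes, and 1 member, Pars2, was lower, against 8.05% of all genes. The 1 h and control libraries did not overlap, with 1 h lower, for 6 of 16 mitochondrial members (37.5%) and for 1 of 20 cytosolic members (5%), against 21.4% of all genes. They did not overlap, with 1 h higher, for 0 members, against 4.49% of all genes. With median-of-ratios scaling, which moved the median over all genes to -0.01, or quantile normalization, 12 of 16 mitochondrial differences were below 0, and the non-overlapping mitochondrial members with 1 h lower were 1 in either case, Pars2, or 6.25% of the class, beside 6.97% and 10.1% of all genes. With median-of-ratios scaling 18 of 20 cytosolic differences were above 0, and Eprs, Rars and Tars were higher at 1 h without overlap, 15% of the class beside 9.1% of all genes. The even division of the cytosolic class depended on single libraries: 17 of 20 were below 0 without 1 h replicate 1 and 16 of 20 without control replicate 3, and the cytosolic median was -0.085 to 0.10 leaving out 1 library. The gap between the class medians, cytosolic minus mitochondrial, was 0.25 and stayed between 0.18 and 0.32 over 19 alternatives. Not all of these could move it. No filter, no variance trend, the 2 groups alone, the replicate block and leaving out a 6 h library leave the 1 h differences of the members as they are. Leaving out control replicate 3 gives the same gap with or without 6 h replicate 2.

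**Figure D2:**
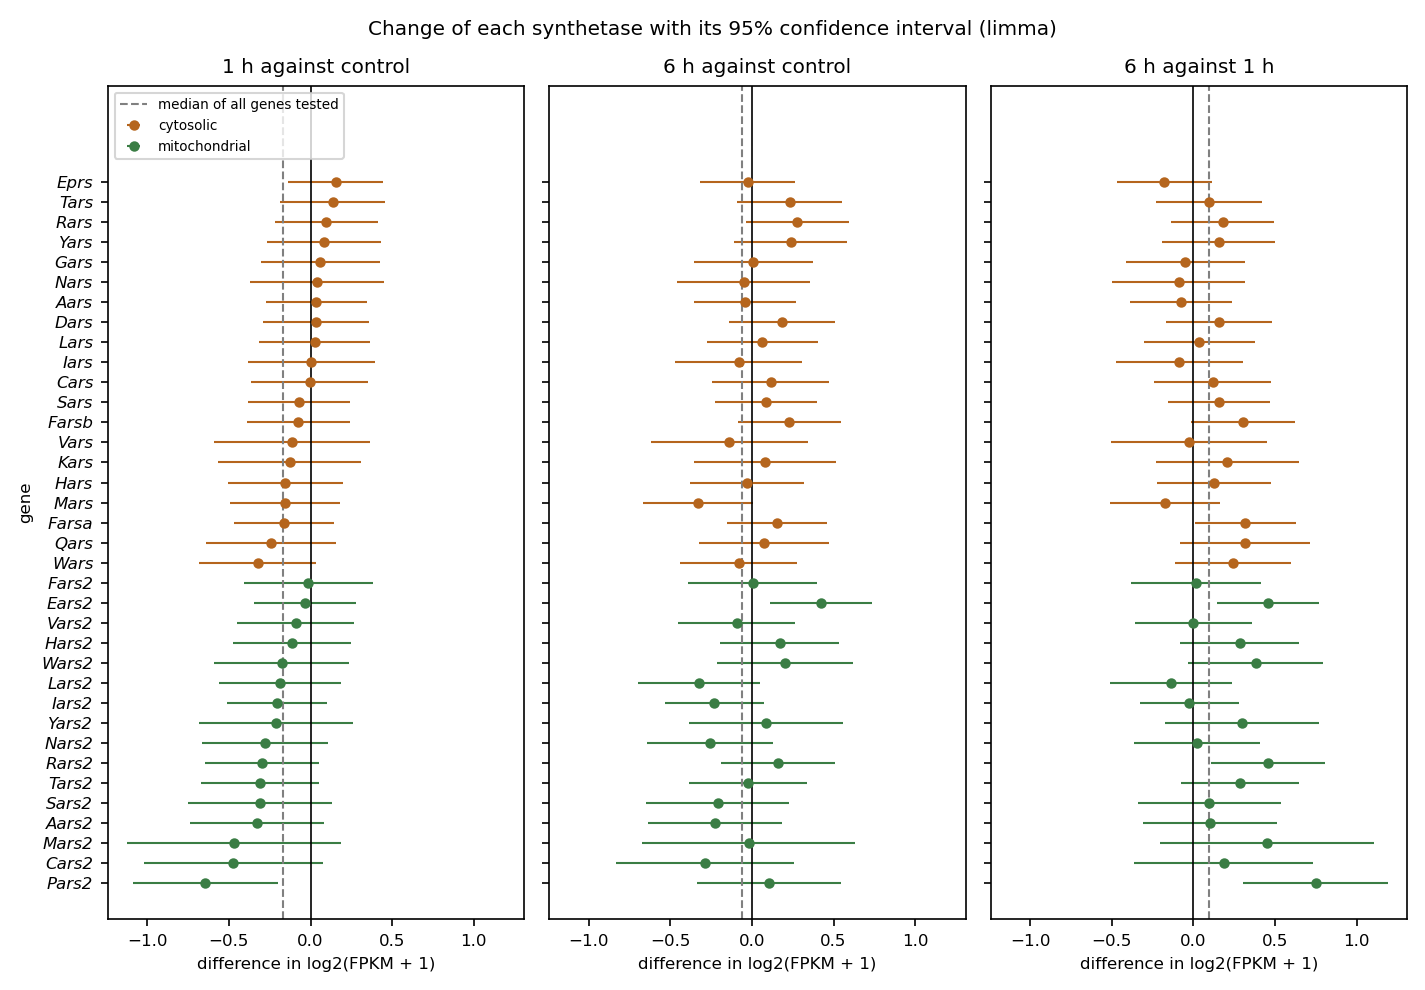
Difference of each synthetase in log2(FPKM + 1), with its 95% confidence interval from limma, for 1 h against control, 6 h against control and 6 h against 1 h. Points are genes ordered by the first panel, and the dashed line is the median of all genes tested (-0.17, -0.06 and 0.09). In the first panel all 16 mitochondrial points lie below 0, as did 8729 of all 11460 genes tested. Most intervals of both classes include 0.

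Pars2, the mitochondrial proline enzyme, had the largest difference of all members. It stood at 1.03, 0.63 and 0.50 FPKM at 1 h, against 1.5, 1.81 and 1.70 FPKM in control, and every 1 h library lay below every control library. The log2 difference was -0.64 (95% interval -1.09 to -0.20; adjusted p 0.353, limma), and the mean at 1 h was 0.431 times the control mean. The difference on the log2(FPKM + 1) scale understates the ratio for a gene this low.

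Cars2 and Mars2, for cysteine and methionine, came next. Cars2 stood at 5.45, 5.09 and 4.20 FPKM at 1 h, against 7.38, 9.25 and 5.36 FPKM in control, a log2 difference of -0.47 (95% interval -1.02 to 0.07; adjusted p 0.501, limma), and 1 h replicate 1 lay above control replicate 3. Mars2 stood at 1.57, 1.86 and 1.64 FPKM at 1 h, against 2.0, 3.94 and 2.49 FPKM in control. Its groups did not overlap, and the log2 difference was -0.47 (95% interval -1.13 to 0.18; adjusted p 0.536, limma).

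Aars2, the alanine enzyme of mitochondria, stood at 2.51, 2.24 and 1.95 FPKM at 1 h, against 2.74, 3.82 and 2.68 FPKM in control. Tars2, for threonine, stood at 6.44, 5.77 and 6.04 FPKM at 1 h, against 6.56, 9.52 and 7.45 FPKM in control. Both separated the groups, Tars2 narrowly, with log2 differences of -0.33 and -0.31. Nars2 and Sars2 separated them too, at -0.28 and -0.31, and Rars2 did not, at -0.30. Within the 3 same-numbered pairs of 1 h and control libraries, 9 of 16 mitochondrial members were lower at 1 h in every pair, the 6 that separated the groups and Cars2, Iars2 and Rars2, as were Mars, Qars and Wars among the cytosolic members, beside 38.2% of all genes. Gars, Rars and Tars were higher in every pair, beside 8.18% of all genes. The smallest differences were those of Ears2 at -0.03 and Fars2 at -0.01.

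On the cytosolic side, Wars, the tryptophan enzyme, had the largest difference. It stood at 25.3, 24.0 and 20.2 FPKM at 1 h, against 28.3, 31.0 and 28.2 FPKM in control, without overlap, a log2 difference of -0.32 (95% interval -0.68 to 0.03; adjusted p 0.495, limma). Qars, the glutamine enzyme, stood at 44.5, 48.2 and 37.5 FPKM at 1 h, against 49.8, 57.4 and 47.1 FPKM in control. Qars overlapped through 1 h replicate 2, with a log2 difference of -0.24.

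The cytosolic members highest relative to control were Eprs and Tars. Eprs stood at 57.4, 54.9 and 47.7 FPKM at 1 h, against 46.2, 48.4 and 48.6 FPKM in control, a log2 difference of 0.15 (95% interval -0.14 to 0.45), with 1 h replicate 3 inside the control range. Tars stood at 61.2, 62.5 and 53.1 FPKM at 1 h, against 56.3, 57.8 and 46.9 FPKM in control, a log2 difference of 0.14. Rars and Yars followed at 0.10 and 0.08, while Cars (34.0, 29.9 and 25.7 FPKM at 1 h, against 32.2, 30.7 and 26.7 FPKM in control) and Iars lay at 0.00. Half-widths of the 95% intervals had a median of 0.34 for cytosolic and 0.39 for mitochondrial members.

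Summed over the class as deposited, mitochondrial synthetases stood at 80.6, 78.0 and 71.4 FPKM at 1 h, against 87.2, 107.8 and 88.2 FPKM in control. These did not overlap, and 21.4% of all genes were likewise lower at 1 h without overlap. The sums were not formed under median-of-ratios scaling or quantile normalization, so their separation holds for the deposited scale. Cytosolic synthetases summed to 1253, 1214 and 1014 FPKM at 1 h, against 1148, 1277 and 1068 FPKM in control, which overlapped. The ratio of the cytosolic to the mitochondrial sum, which does not depend on the scaling of a library, was 15.5, 15.6 and 14.2 at 1 h, against 13.2, 11.9 and 12.1 in control, and averaged 15.1 ± 0.772 at 1 h and 12.4 ± 0.699 in control (SD, n = 3 each). The 3 ratios at 1 h all lay above the 3 in control. Without Gars and Kars, which serve both compartments, the mean ratio was 12.9 at 1 h and 10.6 in control, and without Nars and Iars2 it was 15.5 at 1 h and 12.7 in control.

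**Figure D3:**
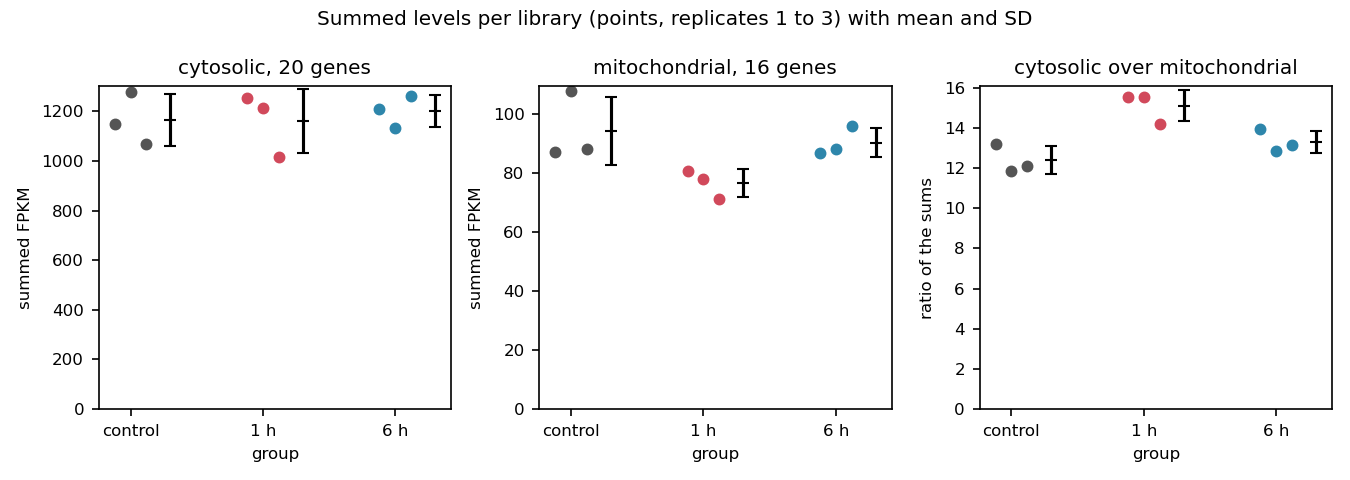
Summed FPKM of the 20 cytosolic and the 16 mitochondrial synthetases and the ratio of the sums, per library (points), with the mean and SD of each group of 3; all axes start at 0. The ratio is 11.9 to 13.2 in control, 14.2 to 15.6 at 1 h and 12.8 to 13.9 at 6 h.

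The second comparison sets 6 h after heat against control. The cytosolic median was 0.07 (12 of 20 above 0) and the mitochondrial median was -0.02 (7 of 16 above 0). Over all genes the median was -0.06, with 4578 of 11460 above 0. No member was called, and limma called 0 genes of all 11460 (0%), while an unadjusted p below 0.05 was reached by 145 genes that were higher (1.27%) and 384 that were lower (3.35%). Without 6 h replicate 1, limma called 25 genes, 0 of them members. Libraries did not overlap, with 6 h higher, for Dars, Tars and Ears2, against 1.89% of all genes, and with 6 h lower for Mars and Lars2, against 5.32% of all genes. With median-of-ratios scaling 5 cytosolic members, Dars, Farsb, Rars, Tars and Yars, were higher without overlap, 25% of the class beside 2.98% of all genes, and 0 were lower, beside 4.26%.

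Ears2, for glutamate, was the member with the smallest unadjusted p, 0.013. It stood at 1.88, 2.0 and 2.16 FPKM at 6 h, against 1.33, 1.2 and 1.21 FPKM in control, and the gap between the groups was wider than the spread within either. The log2 difference was 0.42 (95% interval 0.11 to 0.74; adjusted p 0.877, limma), and the mean at 6 h was 1.61 times the control mean. The lowest adjusted p for Ears2 over the alternatives was 0.622.

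Lars2, for leucine, stood at 2.45, 2.74 and 3.3 FPKM at 6 h, against 3.39, 4.26 and 3.70 FPKM in control, a log2 difference of -0.32 (95% interval -0.70 to 0.05; adjusted p 0.877, limma). Every 6 h library was below every control library. Cars2 stood at 3.91, 7.35 and 6.31 FPKM at 6 h, against 7.38, 9.25 and 5.36 FPKM in control, a log2 difference of -0.29 with overlapping groups. Pars2 stood at 2.36, 1.28 and 2.08 FPKM at 6 h, against the same 1.5 to 1.81 FPKM in control, with the lowest 6 h library below and the other two above that range, a log2 difference of 0.10 (95% interval -0.34 to 0.55). Iars2 had a log2 difference of -0.23, Aars2 of -0.23 and Nars2 of -0.26.

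In the cytosolic class, Mars, the methionine enzyme, stood at 19.8, 21.9 and 23.0 FPKM at 6 h, against 27.6, 31.8 and 23.1 FPKM in control. The groups came close, at 6 h replicate 3 and control replicate 3, without overlap, and the log2 difference was -0.33 (95% interval -0.67 to 0.01; adjusted p 0.877, limma). The Mars locus shares 68 bases with Ddit3 on the opposite strand, and the strand setting of the libraries is not given in the sources used here. Rars, the arginine enzyme, stood at 99.95, 89.3 and 108 FPKM at 6 h, against 79.6, 90.3 and 75.1 FPKM in control, a log2 difference of 0.28 (95% interval -0.04 to 0.59; adjusted p 0.877, limma). Of the 6 h libraries, replicate 2 lay within the control range of Rars.

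Yars, the tyrosine enzyme, stood at 35.9, 34.1 and 37.2 FPKM at 6 h, against 30.0, 34.4 and 26.5 FPKM in control, a log2 difference of 0.24. Tars stood at 69.9, 58.6 and 60.5 FPKM at 6 h, against 56.3, 57.8 and 46.9 FPKM in control, a log2 difference of 0.23. Dars had a log2 difference of 0.18. The ratio of the cytosolic to the mitochondrial sum was 13.9, 12.8 and 13.1 at 6 h (13.3 ± 0.554) and overlapped that of control (12.4 ± 0.699; SD, n = 3 each).

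The third comparison sets 6 h against 1 h. Here 13 of 16 mitochondrial and 13 of 20 cytosolic members were above 0, with medians of 0.23 and 0.12. Over all genes the median was 0.09, and 7205 of 11460 were above 0. No member was called, against 0.279% of all genes (32, all lower at 6 h). At an unadjusted limma p below 0.05, Pars2, Ears2, Rars2 and Farsa were higher at 6 h, 4 of 36 beside 8.45% of all genes, and 0 were lower beside 3.19%. Libraries did not overlap, with 6 h higher, for 4 of 16 mitochondrial members (Ears2, Pars2, Rars2 and Tars2) and for 2 of 20 cytosolic members (Farsa and Farsb), against 15.2% of all genes, and for 0 with 6 h lower, against 4.97%. With median-of-ratios scaling the cytosolic median was -0.0015 and 10 of 20 were above 0, so the direction of the cytosolic class at 6 h against 1 h depends on the scaling. Under it Farsa, Farsb, Ears2, Pars2 and Rars2 were higher at 6 h without overlap, beside 8.89% of all genes, and Aars, Eprs, Mars and Iars2 were lower, beside 9.18%. Without 1 h replicate 3 the cytosolic median was 0.03. The comparisons share libraries, so a low 1 h value of a gene enters both the first and the third.

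Pars2 stood at 2.36, 1.28 and 2.08 FPKM at 6 h, against 1.03, 0.63 and 0.50 FPKM at 1 h. Every 6 h library lay above every 1 h library, and the log2 difference was 0.75 (95% interval 0.31 to 1.19; adjusted p 0.193, limma), with a ratio of means of 2.65. The lowest adjusted p over the alternatives was 0.0761, without control replicate 3 and 6 h replicate 2. Ears2 stood at 1.88, 2.0 and 2.16 FPKM at 6 h, against 1.21, 1.2 and 1.18 FPKM at 1 h, a log2 difference of 0.46 (95% interval 0.14 to 0.77; adjusted p 0.268, limma). The 1 h values of Ears2 lay within or just below its control range.

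Rars2, the arginine enzyme of mitochondria, stood at 12.5, 10.6 and 10.7 FPKM at 6 h, against 8.53, 7.74 and 7.53 FPKM at 1 h, a log2 difference of 0.46 (95% interval 0.11 to 0.81; adjusted p 0.313, limma). Control libraries of Rars2, at 11.2, 10.8 and 8.25 FPKM, overlapped both. Mars2 stood at 3.99, 1.34 and 3.24 FPKM at 6 h, against 1.57, 1.86 and 1.64 FPKM at 1 h, a log2 difference of 0.45 with 6 h replicate 2 below all 1 h libraries. Tars2 stood at 7.30, 8.35 and 7.23 FPKM at 6 h, against 6.44, 5.77 and 6.04 FPKM at 1 h, without overlap and with a log2 difference of 0.28.

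The subunit genes of the phenylalanine enzyme stood together. Farsa stood at 31.8, 32.9 and 33.6 FPKM at 6 h, against 26, 25.9 and 26.3 FPKM at 1 h, a log2 difference of 0.32 (95% interval 0.01 to 0.63; adjusted p 0.412, limma). Farsb stood at 33.2, 31.0 and 32.2 FPKM at 6 h, against 26.5, 27.0 and 24.1 FPKM at 1 h, a log2 difference of 0.30 (95% interval -0.01 to 0.62; adjusted p 0.448, limma). The groups did not overlap for either gene, and the control libraries, at 25.4 to 34.2 FPKM for Farsa and 23.5 to 31.8 FPKM for Farsb, spanned most of both ranges. Qars stood at 44.3, 66.1 and 53.6 FPKM at 6 h, against 44.5, 48.2 and 37.5 FPKM at 1 h, a log2 difference of 0.31. Eprs and Mars had the lowest cytosolic differences, -0.18 and -0.17.

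**Figure D4:**
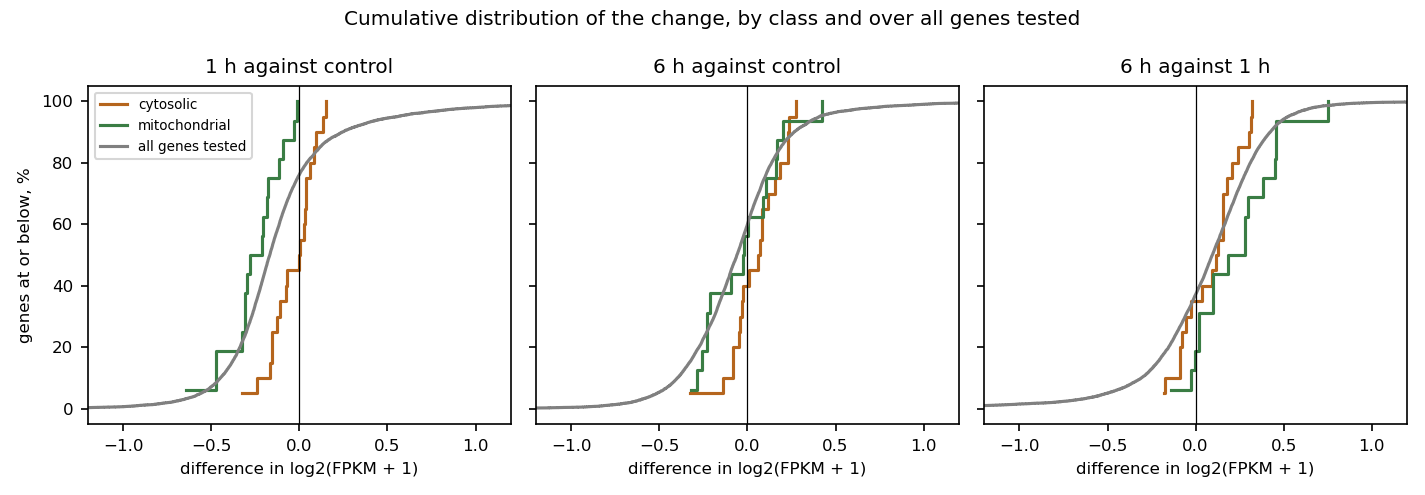
Cumulative share of genes at or below each difference in log2(FPKM + 1), for the 20 cytosolic members, the 16 mitochondrial members and all 11460 genes tested, in the 3 comparisons. At 1 h against control the mitochondrial curve lies left of the curve of all genes and the cytosolic curve right of it at the median (-0.25, -0.17 and 0.0005); at 6 h against control the 3 medians are -0.02, -0.06 and 0.07.

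Because many cytosolic synthetases are known ATF4 targets, they were set beside 28 other genes of the integrated stress response, of which 27 were tested. These had a median log2 difference of 0.34 at 1 h (23 of 27 above 0) and 0.12 at 6 h, both against control. All genes had -0.17 and -0.06, with 2731 of 11460 above 0 at 1 h. Atf3, a stress-induced transcription factor, rose to 124, 162 and 121 FPKM at 1 h, against 9.31, 7.70 and 2.10 FPKM in control, a log2 difference of 4.37 (adjusted p 0.004, limma). Chac1, a glutathione-degrading enzyme and ATF4 target, rose to 73.6, 108 and 105 FPKM at 1 h, against 15.9, 7.09 and 11.2 FPKM in control, a log2 difference of 3.0 (adjusted p 0.026, limma). The other 25 tested genes of the list were not called, among them Slc7a11, the cystine transporter, at a log2 difference of 1.29 (adjusted p 0.286, limma).

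The 13 synthetases listed as ATF4 targets had a median log2 difference of 0.03 at 1 h (8 of 13 above 0) and -0.03 at 6 h, and the other 7 cytosolic synthetases had -0.13 at 1 h and 0.15 at 6 h. None of either list was called. Atf4 itself stood at 219, 199.5 and 191 FPKM at 1 h, against 212, 218 and 146 FPKM in control, a log2 difference of 0.10. The 5 genes with the response element shown above, Aars, Gars, Iars, Tars and Yars, had log2 differences of 0.04, 0.06, 0.00, 0.14 and 0.08 at 1 h, each with an interval that included 0.

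**Figure D5:**
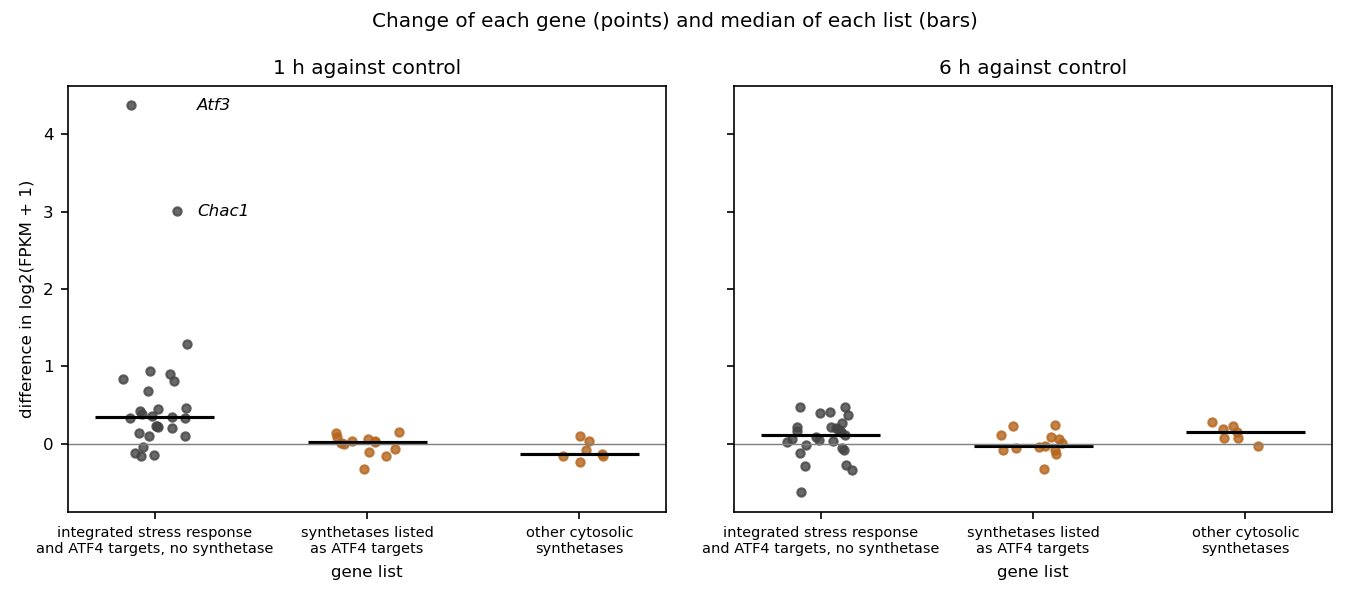
Difference in log2(FPKM + 1) at 1 h and at 6 h against control for 27 genes of the integrated stress response, 13 cytosolic synthetases listed as ATF4 targets and 7 other cytosolic synthetases. Points are genes and bars are medians (0.34, 0.03 and -0.13 at 1 h; 0.12, -0.03 and 0.15 at 6 h); Atf3 and Chac1 are the called genes.

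The 8 synthetases of the multi-synthetase complex summed to 377, 431 and 345 FPKM in control, 402, 405 and 332 FPKM at 1 h, and 398, 398 and 421 FPKM at 6 h. Their median log2 difference was 0.02 at 1 h and 0.07 at 6 h, with 0 called. The scaffold genes Aimp1, Aimp2 and Eef1e1 had log2 differences of -0.10, -0.31 and -0.27 at 1 h, and of 0.33, 0.40 and 0.53 at 6 h against 1 h. None of the 3 was called, and Aimp2 and Eef1e1 were higher at 6 h than at 1 h without overlap, beside 15.2% of all genes. The members were also divided by structural class, which depends on the fold of the catalytic domain. The joint enzyme of Eprs was counted in class I only, so the division is not exact for it. The 19 members listed as class I had a median of -0.16 and the 17 listed as class II a median of -0.11 at 1 h, beside -0.17 over all genes.

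For genes that act beside the mitochondrial synthetases, in making, charging or decoding mitochondrial transfer RNA, 27 names were searched. Some of these were alternative names of the same gene, and 22 genes were tested. Their median log2 difference was -0.23 at 1 h (18 of 22 below 0) and 0.13 at 6 h (17 of 22 above 0) against control, beside -0.17 and -0.06 over all genes, and 0.27 at 6 h against 1 h. None of the 22 was called. Of all 11460 genes, 8729 were below 0 at 1 h and 4578 were above 0 at 6 h against control. Mtfmt, which formylates the initiator methionyl-tRNA, stood at 6.85, 6.02 and 6.04 FPKM in control, 4.49, 4.55 and 4.05 FPKM at 1 h, and 6.31, 9.47 and 12.03 FPKM at 6 h. Its 1 h libraries lay below all others, and the log2 difference of 6 h against 1 h was 0.90 (adjusted p 0.143, limma).

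The authors' deposited table holds their own q-values from DEGseq. At a q of at most 0.001 and a difference of at least 2-fold, that table lists 1 synthetase at 1 h against control, Pars2, with the authors' log2 fold change of -1.25 and q of 1.06e-13, beside 7.84% of the genes with a q-value. It lists Pars2 again at 6 h against 1 h, with 1.39 and 1.84e-17, beside 4.5% of genes, and 0 synthetases at 6 h against control, beside 6.45%. At that q alone, the authors' deposited table lists 24 of 36 members at 1 h (5 higher and 19 lower), 20 at 6 h (11 higher and 9 lower) and 25 at 6 h against 1 h (20 higher and 5 lower). Beside these, that table lists 55.2%, 44.1% and 48.7% of all genes with a q-value. In bulk RNA, fewer cells of a type and less RNA per cell cannot be told apart.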

How the data were processed

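RNA-seq values of 9 libraries in 3 groups of 3 were used. The authors deposited 1 table with FPKM per gene and library, per the file headers. Tools named in the submitters' processing notes, with no role or order, are RSEM 1.2.12, HISAT2 2.0.4 and Bowtie2 2.2.5, and the build named is mm10; the sources used here give neither the kit nor its strand setting. FPKM are shares of a library, so a large rise of some transcripts lowers the others. The authors also deposited log2 fold changes and q-values made with DEGseq, per the file headers.

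The 11460 genes that reached 1 FPKM in 3 or more libraries were tested on log2(FPKM + 1), a pseudocount of 1, with limma 3.58.1 (R 4.3.3), a variance trend, all 9 libraries in 1 fit and 6 residual degrees of freedom. The test was two-sided, with Benjamini-Hochberg adjustment over all genes tested and calls at an adjusted p below 0.05. The script was tested on simulated data.

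Values in single libraries are given for the members with the 3 largest differences per class and comparison, the 3 highest and lowest in control per class, Gars and Kars, and the 4 pairs with the lowest and highest ratios. For some of these members a group is left out or given as a range. Members named beside these were chosen after their values were seen. The members and gene lists were chosen with earlier results of these data known.

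Depth was estimated from the steps of low FPKM values of transcripts of 400 to 1200 bases, with a length offset of 35 bases; 87.7% to 90.5% of those values lay within 0.2 of a whole read. Read estimates cover counting error only. Same-numbered control and 1 h libraries deviated together (correlations of 0.194, 0.149 and 0.262), so the numbers were read as a possible pairing of that comparison. Unlike-numbered ones had -0.284 to 0.171, the highest for 1 h replicate 1 with control replicate 2. Those of 6 h with control (-0.178, 0.0406 and 0.0143) and with 1 h (-0.269, -0.104 and -0.35) were not read as paired. The reported fit did not use the pairing, and the replicate block covered all 9 libraries, those at 6 h included. Alternatives were other scalings, pseudocount, filters, groups in the fit, no trend, a replicate block and leaving out libraries; scaling to the FPKM sum and leaving out control replicate 3 and 6 h replicate 2 together were added after seeing the data.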

Additional observations from a re-analysis of the deposited data

Results flagged for a closer look

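Of the genes named here, 4, none a synthetase, differed between the 6 h and the 1 h effects of heat, tested as 6 h against 1 h in limma, which called 32 genes in all. The log2 difference was -5.27 for Hspa1a and -4.58 for Dnajb1, both heat-induced chaperone genes. It was -4.43 for Atf3 and -2.85 for Chac1, the integrated stress response genes set beside the cytosolic synthetases. None of the 36 synthetases had such a difference in limma at an adjusted p below 0.05, while 4 had an unadjusted p below 0.05.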

How the results depend on the processing

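Members called were 0 in each comparison, as reported and in all 19 alternatives, replicate block included. With the replicate block all genes called were 15, 0 and 23 (1 h against control, 6 h against control, 6 h against 1 h), against 18, 0 and 32 without it, and no member's call changed. For 1 h against control, genes called were 31 with quantile normalization, 10 with no filter, 47 with the 2 groups alone and 8 to 52 leaving out 1 library. For 6 h against control they were 0 to 25 leaving out 1 library. For 6 h against 1 h they were 55 with quantile normalization and 8 to 104 leaving out 1 library, with 104 without 6 h replicate 1 and 8 without 1 h replicate 3. With median-of-ratios scaling the class medians were 0.17 (cytosolic) and -0.11 (mitochondrial) at 1 h, and -0.0015 and 0.13 at 6 h against 1 h; quantile normalization gave -0.12 for the mitochondrial class at 1 h. Leaving out 1 library, the mitochondrial median was -0.12 to 0.052 at 6 h and 0.15 to 0.25 at 6 h against 1 h. Without Gars and Kars the ratio of sums was 10.6 in control, 12.9 at 1 h and 11.4 at 6 h. Of 84 differences of named members, 50 kept their sign in every alternative and 34 did not. Some alternatives, such as no variance trend or the replicate block, leave each difference as it is and cannot change a sign. The cause of the changed signs was not tested. With control replicate 3 and 6 h replicate 2 left out, 7 cytosolic and 8 mitochondrial members were lower at 1 h than in control without overlap, beside 35.2% of all genes. With scaling to the FPKM sum 7 mitochondrial members were lower at 1 h without overlap, beside 18.7% of all genes. The depth and 3 libraries a group limit what can be seen of genes near 1 FPKM, above all Pars2, Ears2 and Wars2.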

Other observations

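The genes that make and modify transfer RNA were also read. Of 51 genes for maturation, modification and quality control of transfer RNA, 50 were tested, and 48 had a difference below 0 at 1 h against control, with a median of -0.24 on the log2 scale beside -0.17 over all genes. At 6 h against 1 h, 48 of 50 were above 0, with a median of 0.35 beside 0.09, and at 6 h against control the median was 0.08 beside -0.06. None was called by limma in any comparison. At an unadjusted limma p below 0.05, 10 of 50 were lower at 1 h, beside 8.05% of all genes. At that p, 15 of 50 were higher at 6 h against 1 h, beside 8.45%. Libraries did not overlap, with 1 h lower than control, for 12 of 50 (24%), near the 21.4% of all genes. For 6 h against 1 h they did not overlap for 23 that were higher, beside 15.2%, and 1 that was lower, beside 4.97%. Of all 11460 genes, 8729 had a difference below 0 at 1 h against control and 7205 had one above 0 at 6 h against 1 h. Ctu1, which thiolates the wobble uridine of cytosolic transfer RNA, stood at 3.06, 3.27 and 3.2 FPKM in control, 2.09, 1.41 and 1.5 FPKM at 1 h, and 3.79, 3.77 and 4.16 FPKM at 6 h. Its log2 difference was -0.66 at 1 h against control (adjusted p 0.216, limma) and 0.89 at 6 h against 1 h (adjusted p 0.0601, limma), and its 3 groups did not overlap.

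The 20 genes listed for RNA polymerase III, which transcribes transfer RNA genes, all had a difference below 0 at 1 h. Their median was -0.26 beside -0.17 over all genes. The list holds subunits of the polymerase and of its factor TFIIIC, Brf1 and Bdp1 of its factor TFIIIB, and Maf1, a repressor of the polymerase. Of all 11460 genes, 8729 were below 0 at 1 h. Libraries did not overlap, with 1 h lower, for 9 of the 20 listed genes, beside 21.4% of all genes, and 0 of the 20 were called. With median-of-ratios scaling that share of all genes was 6.97%. The 20 genes and the transfer RNA genes above were not counted under that scaling. At 6 h against control their median was -0.04. For the 8 genes of eIF2 alpha kinases and amino acid sensing the median was -0.18 at 1 h and -0.23 at 6 h, and for 6 tested partners of EPRS and WARS in the interferon response it was -0.02 at 1 h and -0.21 at 6 h, with 0 called in either list.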
